A study of Arabidopsis thaliana with 29 samples.

Results

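Arabidopsis chromosome 2 carries, near its centromere, a copy of much of the mitochondrial genome. The 135 loci described here are all those with identifiers from AT2G07667 to AT2G07835, chosen by identifier alone, of 33681 loci with deposited expression values, and they were compared with the 122 loci of the mitochondrial genome itself (identifiers beginning ATMG). The data are RNA sequencing of whole Arabidopsis thaliana plants of the accession Col-0 that were grown in soil under long days and left without water from an age of about 3 weeks. The mutant pp7l, in the Col-0 background, was sampled after 0, 6, 9, 12 and 15 days without water (0 D to 15 D) with 3 libraries each, and so was wild-type Col-0 (written Col0), except that 6 D of Col0 has 2 libraries (replicates 1 and 3), which gives 29 libraries in 10 groups. The labels name no watered plants of the later days, so a change from 0 D holds both the lack of water and up to 15 days of age. Sample labels and series text name different alleles, and the mutant is therefore written pp7l. The column names of the deposited table mark the libraries of a group with brep and a number, which may stand for biological replicates. The labels do not say whether they come from separate plants. The p-values therefore measure the spread between libraries within groups, taken for each locus over all 10 groups together, and this spread may be technical.

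Plant mitochondria keep a small genome that encodes subunits of the respiratory chain and of the ATP synthase, some ribosomal proteins, proteins of cytochrome c maturation, and transfer and ribosomal RNAs. Stretches of organellar DNA have moved into the nucleus in many plants, and the Col-0 insertion on chromosome 2 is a large and recent one. In the organelle these genes are transcribed from mitochondrial promoters, and a sequencing read seldom tells the transcript of a near-identical nuclear copy from that of the organelle. The levels below are TPM, a measure of transcript abundance that is corrected for transcript length and sums to the same total in each library. They were given by the authors to the chromosome 2 or to the ATMG locus, and they say where reads were assigned, not from which genome the RNA was transcribed.

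The reference genome (RefSeq, TAIR10.1) showed how close the copies are. Chromosome 2 matched the mitochondrial genome almost without interruption over a block of 270.7 kb, chr2:3239038-3509765, of which 99.59% lay in alignments of at least 300 bases. The 17 alignments of at least 2 kb were 99.56 to 99.972% identical, with 206 mismatched bases over 288.1 kb aligned. Of the 135 loci, 114 lay in the block, 18 lay outside it and 3 (AT2G07679, AT2G07781 and AT2G07782) were not found in the reference. Of the 114 loci in the block, 66 were identical to the mitochondrial genome over their whole length. Another 35 loci of the deposited table also lay in the block but carry identifiers outside the range, and their mean levels summed to 80.38 TPM.

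The following stretches of 61 bases come from RefSeq TAIR10.1 and are written 5′ to 3′. They show loci identical to the mitochondrial genome and a locus that differs from it at a single base. The first 3 open the coding sequences of the loci for ATP synthase subunits 9 and 6 and for NADH dehydrogenase subunit 3, with the start codon in capitals, and each was identical to the mitochondrial genome. They come from chr2:3252053-3252113 (minus strand), chr2:3502319-3502379 (plus strand) and chr2:3270008-3270068 (plus strand). The fourth lies in the coding sequence of AT2G07698, the copy of the gene for ATP synthase subunit alpha, at chr2:3361898-3361958 (plus strand). The last is the mitochondrial stretch it aligns to, chrM:69168-69228 (minus strand). The capitals in this pair mark T466C, the only base at which the nuclear gene and the mitochondrial genome differed, counted from 1 at the 5′ end of the nuclear gene. Whether this base lies inside the mitochondrial atp1 gene itself was not looked at, so it may not tell the 2 copies of that gene apart.
AT2G07671 (atp9): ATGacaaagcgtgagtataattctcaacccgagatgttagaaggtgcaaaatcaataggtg
AT2G07741 (atp6): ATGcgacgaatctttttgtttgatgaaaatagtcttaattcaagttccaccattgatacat
AT2G07751 (nad3): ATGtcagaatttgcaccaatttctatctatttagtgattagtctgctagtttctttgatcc
AT2G07698 (atp1), chromosome 2: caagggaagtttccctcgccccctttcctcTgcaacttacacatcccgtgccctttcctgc
AT2G07698 (atp1), mitochondrial genome: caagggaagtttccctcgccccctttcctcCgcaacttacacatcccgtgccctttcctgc

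The level of the 135 loci rested on a few genes of the respiratory chain and the ATP synthase. AT2G07671, the copy of atp9, which encodes the ring subunit of the ATP synthase, averaged 6085 TPM over the 29 libraries and made up 48.49% of the summed level of the 135 loci. AT2G07707 (atp8, a subunit of the membrane part of the same enzyme) averaged 2821 TPM and AT2G07698 (atp1, the alpha subunit of its catalytic head) averaged 723.7 TPM. These 3 loci made up 76.74% of the sum, and the 8 highest loci 90.53%. The other 5 were AT2G07687 (cox3, cytochrome c oxidase subunit III) at 583.2 TPM, AT2G07731, a pseudogene on the sequence of nad6, at 531.5 TPM, AT2G07726, a pseudogene on the sequence of rps14, at 317.6 TPM, AT2G07727 (cob, cytochrome b) at 194.7 TPM and AT2G07771 (named ABCI5, on the sequence of ccmC, a gene of cytochrome c maturation) at 103.6 TPM.

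By kind, the 12 loci for the respiratory chain or the ATP synthase held 84.07% of the summed level and the 51 pseudogenes 10.98%. The 40 hypothetical or other loci held 1.652%, the 5 ribosomal protein loci 1.383% and the 4 loci of cytochrome c maturation 0.8917%. Of the 16 transfer RNA loci, 14 were listed at 0 in every library, and the others were AT2G07792 (tRNA-Tyr, 20.69 TPM on average) and AT2G07755 (tRNA-Met, 1.124 TPM). In all, 38 of the 135 loci were listed at 0 in all 29 libraries and 35 had a mean of at least 10 TPM. At the ends of the identifier range, AT2G07667 averaged 0.4692 TPM and AT2G07835 averaged 2.473 TPM.

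**Figure D1:**
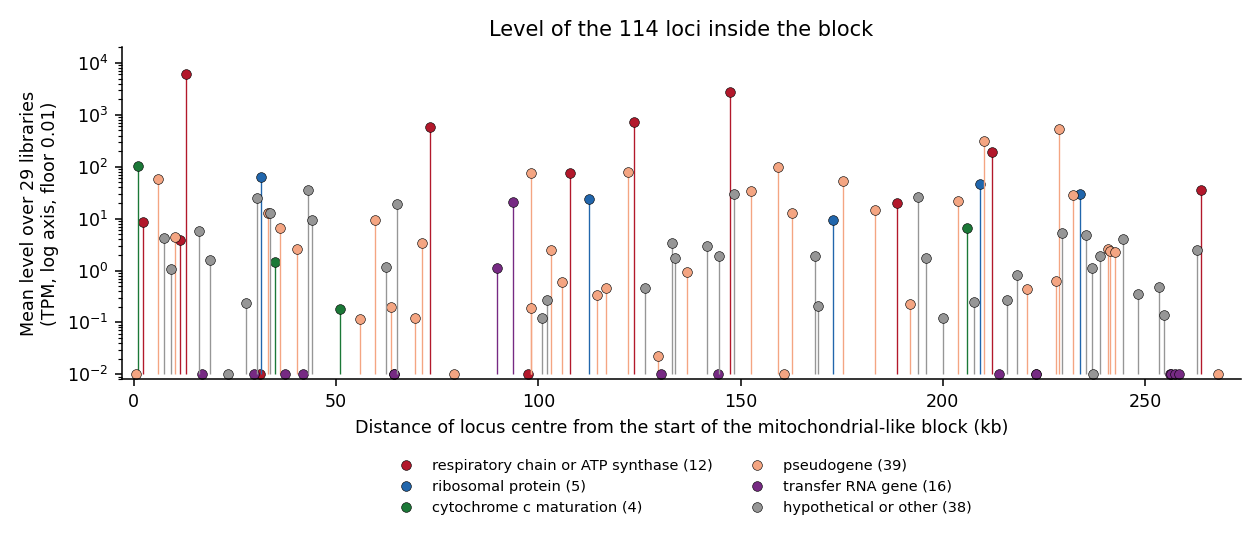
Mean level over 29 libraries (TPM, log axis, values under 0.01 drawn at the floor) of the 114 loci inside the block, by distance of the centre of the locus from the start of the block (kb), coloured by kind with the number of loci. The highest locus is AT2G07671 at 6085 TPM, and the block also holds loci listed at 0.

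The label of a mitochondrial-like insertion held for the loci in the block and not for the 18 outside it. It could not be checked for the 3 loci not found in the reference. The 18 loci outside the block shared none of their 31-base words with the mitochondrial genome. The reference calls most of them pseudogenes, 15 of them were listed at 0 throughout, and they made up 0.01606% of the summed level. The named genes among them are MCM5 (AT2G07690), a subunit of the replicative helicase, at 1.417 TPM on average, and ABCC13 (AT2G07680), an ABC transporter, at 0.5982 TPM. AT2G07750, described as an RNA helicase, and AT2G07760, described as a zinc knuckle protein, were listed at 0. The loci next to the range by identifier were low as well, with means of 2.1409, 1.3946 and 0.149318 TPM for AT2G07664, AT2G07665 and AT2G07666, and AT2G07880, AT2G07981 and AT2G08986 did not exceed 0.03335 TPM in any library. ABCI4 (AT2G07681), which lies inside the block, averaged 0.1824 TPM.

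Depth per library is unknown, because TPM do not keep it. Plastid loci took 13.7 to 86.7% of the TPM of a library, and 4 nuclear rRNA loci took 61.2%, 27.5% and 25.0% in Col0 15 D replicate 3, Col0 15 D replicate 1 and Col0 12 D replicate 3. AT1G15405, a nuclear locus of high level, took 46.0% in Col0 15 D replicate 2. The share of plastid loci was highest, at 86.7%, in Col0 6 D replicate 1, a library that stood apart from replicate 3 of its group in many of the results below. PP7L (AT5G10900) had group means of 0.105 to 1.58 TPM in all 10 groups, so its level does not check the genotype labels. The mesophyll markers, 3 genes of leaf photosynthesis, summed to 594 to 609 TPM in pp7l and to 2.55 to 11.1 TPM in Col0 at 15 D, against 4103 to 4253 TPM in pp7l and 5526 to 6417 TPM in Col0 at 0 D. In whole plants, fewer cells of a type and less RNA per cell cannot be told apart.

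The summed level of the 135 loci mostly followed that of the ATMG loci through the drought. In Col0 6 D replicate 1, though, the ATMG sum, at 7911 TPM, was above the Col0 libraries of 0 D, and that of the 135 loci was below them. In pp7l the sum of the 135 loci at 0 D was 8280 ± 101 TPM, followed by 9385 ± 250 TPM after 6 days, 10993 ± 716 TPM after 9, 13161 ± 834 TPM after 12 and 15940 ± 600 TPM after 15 days of drought (SD, n = 3 each). In Col0 the sum at 0 D was 8806 ± 73.4 TPM, followed by 17641 ± 1696 TPM after 9 days, 18617 ± 3889 TPM after 12 and 12184 ± 7018 TPM after 15 days (SD, n = 3 each), and it stood at 5118 and 13773 TPM in the 2 libraries of 6 D. The pp7l libraries of different days did not overlap, each later day standing above the earlier ones, whereas the Col0 libraries of 15 D spread from 5026 to 19052 TPM, across the range of the other days.

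**Figure D2:**
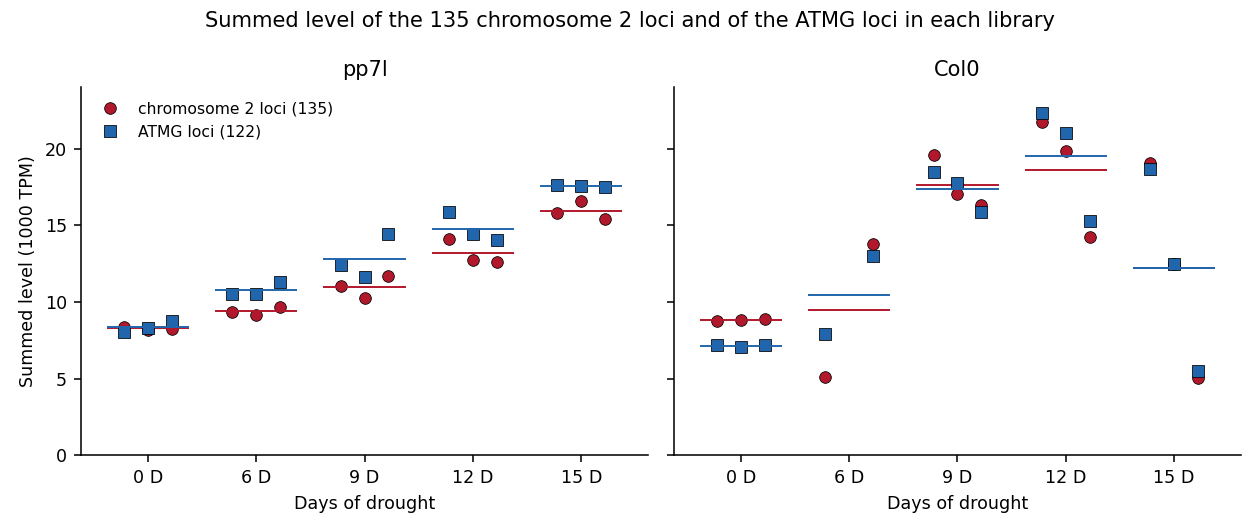
Summed level (in 1000 TPM) of the 135 chromosome 2 loci (red circles) and of the 122 ATMG loci (blue squares) in each library, by days of drought, with pp7l left and Col0 right and a line at each group mean. The ratio of the 2 sums runs from 0.647 in Col0 6 D replicate 1 to 1.24 in Col0 at 0 D. The sums of the chromosome 2 loci run from 5026 to 21756 TPM, and the Col0 libraries of 15 D differ most among themselves.

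The ratio of the summed level of the 135 loci to that of the ATMG loci averaged 0.904 over the 15 pp7l libraries and 1.02 over the 14 Col0 libraries. At 0 D it was 1.04, 0.986 and 0.945 in pp7l and 1.21, 1.24 and 1.24 in Col0, so that the 3 Col0 libraries were above every other library of the series. From 6 D to 15 D it lay between 0.810 and 0.943 in pp7l. In Col0 it lay between 0.915 and 1.06 from 6 D to 15 D, apart from 6 D replicate 1, where it was 0.647, the lowest of the series. The ratio is free of the total of the library, but its size depends on the loci in it. The 2 sums do not hold the same genes. For 12 of the 135 loci, AT2G07707 (atp8) among them, the named ATMG locus has no values and adds nothing to the ATMG total. These 12 loci made up 24.07% of the summed level of the 135. Without the 3 highest ATMG loci (ATMG01080, ATMG00516 and ATMG00060) it was 1.55 in pp7l and 1.86 in Col0.

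How the TPM were divided between a chromosome 2 locus and its mitochondrial gene could be read for 37 loci whose reference note names an ATMG locus that has values. In 22 of the pairs the means summed to at least 10 TPM. The chromosome 2 locus held over 90% of the summed TPM of the pair in 8 of them, between 10 and 90% in 8 and under 10% in 6. For another 12 loci, AT2G07707 and AT2G07771 among them, the named ATMG locus has no values in the deposited data, so no share could be read.

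AT2G07671 held 72.5% of the TPM it shares with ATMG01080 (atp9), with a range of 68.6 to 81.4% over the libraries. AT2G07687 held 54.2% of the TPM shared with ATMG00730 (cox3) and, apart from Col0 6 D replicate 1, ranged from 53.0 to 60.0%. AT2G07698 held 90.5% of the pair with ATMG01190 (atp1), with a range of 85.4 to 100%.

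At the other extreme, AT2G07751 (nad3) and AT2G07689 (nad2, another subunit of NADH dehydrogenase) were listed at 0 in all 29 libraries, while ATMG00990 and ATMG01320 averaged 75.1 and 322 TPM. AT2G07741, the copy of atp6 shown above, was listed at 0 in 26 libraries. It stood at 452 TPM in Col0 6 D replicate 1, 401 TPM in Col0 15 D replicate 2 and 177 TPM in Col0 15 D replicate 3, where ATMG00410 stood at 78.8, 672 and 314 TPM. In the other libraries ATMG00410 held the whole of the pair, at 466 to 1254 TPM. AT2G07768 (ccmFN2, a gene of cytochrome c maturation) likewise was above 0 only in Col0 15 D replicates 2 and 3, at 31.05 and 11.2 TPM.

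The pairs differed in the transcripts that the reference annotates. In each of the 8 pairs in which the chromosome 2 locus held over 90% of the TPM, its annotated transcript was longer than its coding part. In 4 of the 6 pairs in which it held under 10%, the annotated transcript was the coding part alone, as in AT2G07741 (1158 bases) and AT2G07751 (357 bases). Of the 8 pairs in between, 5 had a longer transcript and 3 the coding part alone. AT2G07696, the copy of rps7, has an annotated transcript of 832 bases with 447 coding bases and held 98.5% of its pair, while AT2G07715, the copy of rpl2, with 2170 and 1170 bases, held 8.71%. The transcript models used by the authors may differ from this annotation, the lengths of the ATMG models were not used here, and the part of transcript length in the shares was not tested.

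Col0 6 D replicate 1 divided the pairs unlike any other library. Of the 20 pairs whose share varied at all, it had the lowest share in 9 and the highest in 4, whereas no other library held an extreme in more than 3. The share of AT2G07734 (rps4) was 23.8% in this library and 90.2 to 100% in the 28 others. The share of AT2G07695 (on the sequence of cox2, cytochrome c oxidase subunit II) was 5.31% in it, against 71.8 to 89.8% elsewhere. The share of AT2G07727 (cob) was 98.4% in it, against 37.9 to 69.8% elsewhere.

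**Figure D3:**
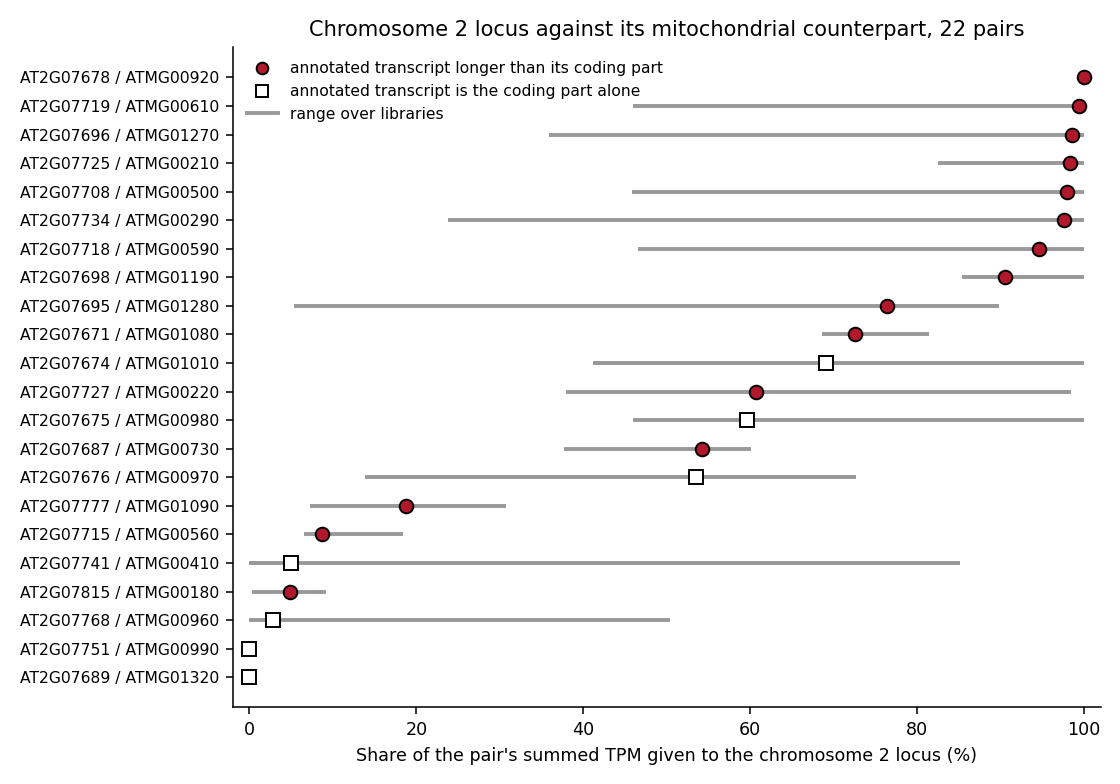
Share (%) of the summed TPM of each of 22 pairs that was given to the chromosome 2 locus, as a point for all 29 libraries together and a grey line for the range over libraries. Red circles mark loci whose annotated transcript is longer than its coding part and white squares loci whose transcript is the coding part alone; the shares run from 0 for AT2G07689 and AT2G07751 to 100% for AT2G07678.

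The comparisons with 0 D share their 0 D libraries within a genotype. Changes were tested with limma on log2(TPM + 1) over the 18757 loci that passed a filter on low values, with Benjamini-Hochberg adjustment over all of them and a threshold of 0.05. The spread of a locus was estimated from all 10 groups together, so the SE and p-value of a comparison also reflect groups outside it. Of the 135 loci, 78 passed that filter (at least 1 TPM in at least 3 libraries), and the others have no test. A locus that passed the filter only through the group in which it was high had to differ, and its calls are given below as a description. This holds for AT2G07741 and AT2G07808 in every pairwise comparison that called them in TPM and for AT2G07694 in 3 comparisons. It also holds for AT2G07729 in Col0 at 12 D and for AT2G07809 in pp7l at 6 D. Of each pairwise TPM count below, 0 to 2 loci are of this kind. Counts after scaling and under other settings were not checked for it. MCM5 is the only one of the 78 known to lie outside the block, and 74 lie inside it. TPM sum to a fixed total and the plastid share differed between days, and the median of all loci moved in most comparisons, so each test was repeated on values scaled by the median of ratios to the geometric mean, which sets that median near 0. Fold changes on both scales understate the change of low loci, because 1 was added to each value before the log2. The share of all loci called is given for the TPM fit and for the scaled fit. For other settings, such as array weights or a library left out, no such share is at hand. Their counts therefore do not tell these loci from all loci.

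After 9 and 12 days most of the 78 loci rose in Col0 in TPM, as did most of all 18757 loci tested. At 12 D against 0 D in Col0, 63 of the 78 loci rose and none fell by limma (0 lower also at an unadjusted p under 0.05), where 73.8% of all loci were called, 61.9% rising and 11.9% falling. At 9 D, 60 rose and none fell (0 also unadjusted), where 67.7% of all loci were called, 64.8% rising and 2.88% falling. The median change of the loci was 1.41 at 12 D and 1.42 at 9 D on the log2 scale, beside 0.97 and 0.86 for all loci tested and 1.30 and 1.22 for the 76 ATMG loci tested. After median-of-ratios scaling, 22 rose and 5 fell at 12 D, and 17 rose and 5 fell at 9 D, where 69.7% of all loci were called at 12 D, 35.1% rising and 34.6% falling, and 51.3% at 9 D, 26.2% rising and 25.1% falling. The 22 and the 17 that rose on that scale had also risen in TPM. The floral markers, 7 MADS-box genes of floral organ identity, were all above 0 in each Col0 library of 9 D and 12 D and summed to 35.6 to 42.3 TPM at 9 D and 22.7 to 28.9 TPM at 12 D, against 1.02 to 1.43 TPM at 0 D. The mesophyll markers summed to 844 to 1047 TPM at 9 D and 79.5 to 139 TPM at 12 D, against 5526 to 6417 TPM at 0 D. Their part in the rise was not tested.

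All 5 ribosomal protein loci rose in Col0 at 9 D and 12 D in TPM, where 64.8% and 61.9% of all loci rose. AT2G07725 (rpl5) stood at 73.5, 60.1 and 67.4 TPM in Col0 at 9 D and at 8.64, 12.2 and 5.73 TPM at 0 D. The groups did not overlap. It was higher by 2.83 ± 0.36 (log2, SE, limma adjusted p = 4.1e-07), and it also rose after scaling, by 1.53. AT2G07734 (rps4) rose by 2.19 ± 0.41 (adjusted p = 4.9e-05) and by 0.91 after scaling. The other 3, AT2G07675 (rps12), AT2G07696 (rps7) and AT2G07715 (rpl2), had changes of 1.60 to 1.64 in TPM and did not pass after scaling.

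Of the 12 respiratory and ATP synthase loci, 10 were tested, and 7 rose in Col0 at each of 9 D and 12 D, where 64.8% and 61.9% of all loci rose. AT2G07698 (atp1) stood at 1128, 1148 and 1012 TPM in Col0 at 9 D and at 227, 287 and 142 TPM at 0 D. Each library of 9 D was above each of 0 D, and the locus rose by 2.38 ± 0.36 (adjusted p = 4.1e-06), and by 0.99 after scaling. AT2G07671 (atp9) stood at 10050, 8496 and 8271 TPM in Col0 at 9 D and at 4923, 4905 and 5028 TPM at 0 D. These groups did not overlap either, but its change of 0.85 ± 0.44 did not pass (adjusted p = 0.087) and was close to the 0.86 of the median locus. After scaling its change was -0.54 and passed the threshold. The cox3 locus AT2G07687 rose by 1.03 and the nad6 pseudogene AT2G07731 by 0.93 at 9 D, and after scaling their changes were -0.35 and -0.45, the second past the threshold.

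The largest changes at 9 D were those of AT2G07767, a pseudogene, which rose by 2.98 ± 0.53, of AT2G07725, and of AT2G07712, a pseudogene on the sequence of nad1 and matR, which rose by 2.61 ± 0.51. At 12 D they were those of AT2G07669, an uncharacterized locus (2.99 ± 0.48), of AT2G07767 (2.98 ± 0.53) and of AT2G07773, a locus described as a cytochrome b protein (2.73 ± 0.35). All of them rose after scaling too. AT2G07773 stood at 18.2, 13.1 and 9.87 TPM in Col0 at 12 D and at 1.45, 0.971 and 1.08 TPM at 0 D, so the groups were far apart.

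At 6 D in Col0, 32 loci rose and 1 fell, where 25.3% of all loci were called, 16.0% rising and 9.34% falling. After scaling, 37 rose and 10 fell, where 53.6% of all loci were called, 25.3% rising and 28.3% falling. The 2 libraries of that day differed widely. AT2G07774, the locus that fell, stood at 0 in replicate 1 and 15.4 TPM in replicate 3 of Col0 at 6 D, against 16.9, 14.2 and 21.6 TPM at 0 D, and its call was lost without replicate 1. AT2G07698 stood at 1310 and 799 TPM at 6 D, above its levels at 0 D in both libraries, and rose by 2.28 ± 0.41 (adjusted p = 2.5e-04). AT2G07671 stood at 1202 TPM in replicate 1 and 7056 TPM in replicate 3, below and above all 3 libraries of 0 D. Without replicate 1 the comparison called 40 loci. Without that library and the 15 D libraries of Col0 it called 54, a setting chosen after seeing the data. With only the libraries of both groups in the limma fit it called 0, with 26 at an unadjusted p under 0.05. AT2G07701, an uncharacterized locus listed at 0 in all 3 Col0 libraries of 0 D, stood at 13.2 and 6.15 TPM at 6 D.

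At 15 D in Col0, the count of loci that differed from 0 D depended on the scale, and the libraries of that day disagreed with one another. In TPM, 5 loci rose and 6 fell, where 51.3% of all loci were called, 16.7% rising and 34.7% falling, and after scaling 33 rose and 4 fell, where 37.8% and 34.0% did. Array weights called 41 loci, and the total without organellar and rRNA loci and AT1G15405 called 34. AT2G07741 and AT2G07808, 2 of the 5 that rose in TPM, passed the filter through the Col0 libraries of 15 D, AT2G07808 through them alone. AT2G07771 (ccmC) stood at 182, 167 and 77.5 TPM in Col0 at 15 D and at 39.3, 36.0 and 38.6 TPM at 0 D. It rose by 1.79 ± 0.30 (adjusted p = 1.3e-05), and by 2.54 after scaling, with every library of 15 D above every one of 0 D. AT2G07781 rose by 1.37 ± 0.37 and also rose after scaling. AT2G07696 (rps7), MCM5 and AT2G07733, a pseudogene on the sequence of nad2, fell on both scales, AT2G07696 by 1.20 ± 0.44 (adjusted p = 0.024). That call was lost without Col0 15 D replicate 3 and without replicate 1 or 2 of Col0 0 D.

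The atp1 locus moved apart from the atp9 locus in Col0 at 15 D. AT2G07698 stood at 148, 139 and 44.2 TPM in Col0 at 15 D, against 227, 287 and 142 TPM at 0 D, and fell by 1.11 ± 0.36 (adjusted p = 0.012). That call did not pass after scaling, without replicate 3 of 15 D or without replicate 2 of 0 D. AT2G07671 stood at 10260, 6398 and 2308 TPM at 15 D, with libraries above and below those of 0 D. A pseudogene on the sequence of ccmFN1, AT2G07783, fell by 1.07 ± 0.35. The 3 genes AT2G07741, AT2G07768 and AT2G07808, a pseudogene of ATMG01330, were listed at 0 at 0 D and above 0 in 2, 2 and 3 Col0 libraries of 15 D. The markers of seeds, 9 genes of storage proteins and oleosins, were all above 0 in each Col0 library of 15 D and summed to 128 to 377 TPM, against 0 to 0.475 TPM in Col0 at 0 D, and their part in these changes was not tested.

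In pp7l, the loci called against 0 D in TPM had all risen. Of the 78 loci, 6, 13, 21 and 33 had risen from 0 D after 6, 9, 12 and 15 days, and by limma 0 fell at any of these days, with 1, 1, 1 and 0 lower at an unadjusted p under 0.05. Of all loci, 21.4, 32.7, 44.1 and 55.0% were called. By day, 17.5, 27.7, 37.8 and 49.3% rose and 3.90, 5.06, 6.31 and 5.70% fell. With array weights 40, 40, 48 and 49 rose and 7, 6, 3 and 1 fell, so the steps between days depend on the setting. The share of all loci called with array weights is not at hand. Leaving out 1 library gave 1 to 10 loci at 6 D, 5 to 26 at 9 D, 12 to 34 at 12 D and 23 to 41 at 15 D. Counts over 1.5 times lower came at 6 D without replicate 2 of pp7l 0 D (1), replicate 2 of pp7l 6 D (1) or replicate 3 of pp7l 6 D (2). At 9 D they came without replicate 1 or 2 of pp7l 0 D (7 and 6) or replicate 1 or 3 of pp7l 9 D (8 and 5), and at 12 D without replicate 2 of pp7l 0 D (12). Counts over 1.5 times higher came without either library of Col0 6 D (10, 26 and 34 at 6, 9 and 12 D for each of them) and without Col0 15 D replicate 3 (10 and 22 at 6 and 9 D). At 15 D the median change was 0.78 for these loci, 0.85 for the ATMG loci and 0.61 for all loci. After scaling, 1, 2, 4 and 4 loci rose and 6, 9, 7 and 10 fell on these days, where 31.9, 37.0, 41.5 and 44.6% of all loci were called, and 14.8, 16.7, 19.5 and 21.8% of all loci rose and 17.0, 20.4, 22.0 and 22.8% fell.

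Few loci rose in pp7l on both scales. AT2G07773 stood at 18.2, 19.0 and 16.7 TPM in pp7l at 15 D and at 3.50, 2.22 and 4.92 TPM at 0 D. The groups did not overlap, and it rose by 2.10 ± 0.35 (adjusted p = 2.4e-05), and by 1.32 after scaling. AT2G07781, one of the loci not found in the reference, rose by 2.12 ± 0.37 in TPM and by 1.29 after scaling. AT2G07706, an uncharacterized locus, and AT2G07732 completed the 4, with rises of 1.18 ± 0.19 and 1.33 ± 0.32. At 12 D the largest rise was that of AT2G07705, an uncharacterized locus (3.44 ± 0.87, and 2.99 after scaling), and at 9 D that of AT2G07703, a pseudogene (1.49 ± 0.37). At 6 D it was that of AT2G07735, a pseudogene (1.24 ± 0.44, adjusted p = 0.046), a call lost under 16 of 39 other settings, among them each one that left out a library of pp7l 6 D.

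Of the 10 respiratory and ATP synthase loci tested, 5 rose in pp7l at 15 D, and 2 of the 5 ribosomal protein loci did, where 49.3% of all loci rose. AT2G07698 stood at 1124, 1067 and 1181 TPM in pp7l at 15 D and at 421, 453 and 521 TPM at 0 D. It rose by 1.28 ± 0.36 (adjusted p = 0.0046), with no overlap of the groups. AT2G07671 stood at 7722, 8135 and 6760 TPM at 15 D and at 4113, 4032 and 3941 TPM at 0 D, also without overlap. Its change of 0.90 ± 0.44 did not pass (adjusted p = 0.081). After scaling neither passed. AT2G07771 rose by 1.23 ± 0.30 in TPM, and AT2G07727 by 0.78 ± 0.33 (adjusted p = 0.045), a call lost under 23 of 39 other settings, including each one that left out a library of either group.

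**Figure D4:**
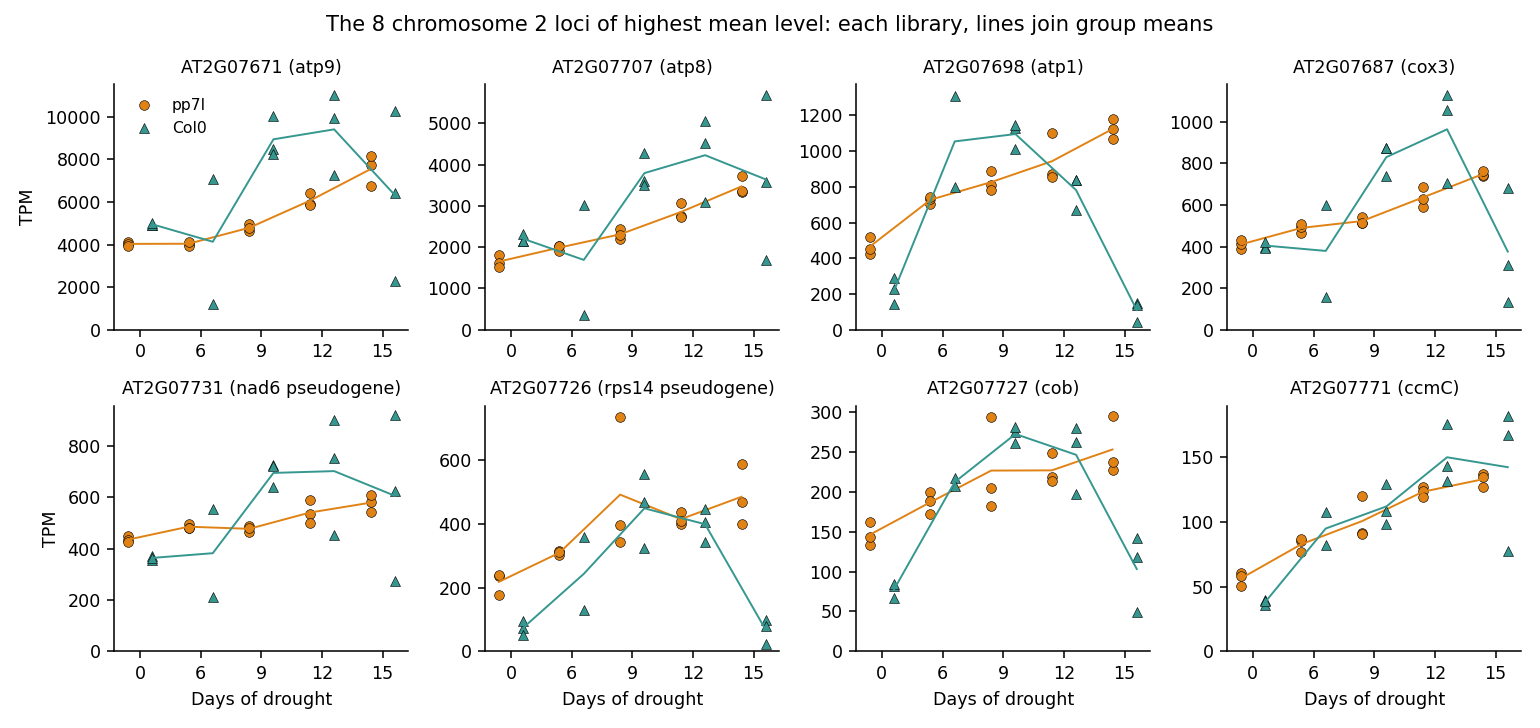
Level (TPM) of the 8 loci of highest mean in each library by days of drought, pp7l as orange circles and Col0 as green triangles, with lines joining group means and each axis starting at 0. The group means of Col0 are highest at 9 D or 12 D for all 8 loci, those of pp7l at 15 D for all but AT2G07726, and AT2G07698, AT2G07726 and AT2G07727 are low in Col0 at 0 D and 15 D.

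Before drought, part of the loci were higher in pp7l than in Col0. At 0 D, 29 loci were higher in pp7l and by limma 0 were lower (0 also at an unadjusted p under 0.05), where 20.2% of all loci were called, 18.8% higher and 1.43% lower. The median difference was 0.71 for these loci, 0.55 for the ATMG loci and 0.28 for all loci. After scaling, 21 were higher, all of them among the 29, and 4 were lower, where 17.0% of all loci were higher and 18.1% lower. The count fell to 8 without Col0 0 D replicate 3 and to 12 without pp7l 0 D replicate 3, and it was 50 without the Col0 15 D libraries and Col0 6 D replicate 1.

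Ribosomal protein loci were among those that differed. AT2G07734 (rps4) stood at 25.2, 32.5 and 41.0 TPM in pp7l and at 6.67, 7.19 and 5.58 TPM in Col0 at 0 D. The groups did not overlap, and the difference was 2.16 ± 0.41 (log2, SE, adjusted p = 6.7e-04), and 1.65 after scaling. Of the other 4 ribosomal protein loci, AT2G07725 was higher by 1.79 ± 0.36, AT2G07696 by 1.31 ± 0.44 and AT2G07715 by 0.88 ± 0.29, the last not after scaling, while AT2G07675 had a difference of 0.63 ± 0.36 and did not pass. AT2G07726, the pseudogene on the sequence of rps14, stood at 236, 177 and 241 TPM in pp7l and at 73.4, 95.1 and 52.5 TPM in Col0, and was higher by 1.58 ± 0.44 (adjusted p = 0.012), a call lost without replicate 3 of either group.

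The highest loci differed among themselves at 0 D. AT2G07671 stood at 4113, 4032 and 3941 TPM in pp7l and at 4923, 4905 and 5028 TPM in Col0 at 0 D, with all pp7l libraries below all Col0 libraries. Its difference of -0.30 ± 0.44, with an SE that also holds the spread of other groups, did not pass in TPM. After scaling it was -0.89 and passed. AT2G07698 stood at 421, 453 and 521 TPM in pp7l and at 227, 287 and 142 TPM in Col0, and was higher by 1.14 ± 0.36 (adjusted p = 0.027), a call lost after scaling and without any library of either group except Col0 0 D replicate 2. MCM5, the nuclear gene outside the block, was also higher in pp7l, by 1.08 ± 0.24 in TPM and by 0.87 after scaling. The largest differences at 0 D were those of AT2G07669 (2.30 ± 0.48), AT2G07734 and the pseudogene AT2G07767 (1.97 ± 0.53), the last lost without replicate 1 or 3 of Col0 or replicate 3 of pp7l.

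At 6 D, 9 were higher and 1 lower in pp7l, where 28.8% of all loci were called, 25.9% higher and 2.93% lower. After scaling the balance turned, with 8 higher and 18 lower, where 36.2% of all loci were called, 18.7% higher and 17.5% lower. In TPM, without Col0 6 D replicate 1 the count was 1, and without replicate 3 it was 37. The largest were AT2G07774, AT2G07712 and AT2G07734 (2.02, 1.85 and 1.70, adjusted p of 0.019, 0.020 and 0.0099 by limma), and all 3 calls were lost without that library. AT2G07741, the locus lower in pp7l, was listed at 0 in all 3 pp7l libraries and in Col0 replicate 3 and stood at 452 TPM in Col0 replicate 1. It passed the filter through that library and 2 Col0 libraries of 15 D, and its call was lost under 7 of 34 other settings. At 9 D, 1 was higher and 2 were lower in pp7l, where 14.6% of all loci were called, 3.05% higher and 11.6% lower. They were AT2G07703 (1.25 ± 0.37), AT2G07719 (-1.24 ± 0.41) and the pseudogene AT2G07694 (-0.58 ± 0.19). AT2G07694 would not have passed the filter without the Col0 libraries of 9 D, so its call is a description only. That call was lost under 9 of 38 other settings. Leaving out any library of either group ended the call of AT2G07719.

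At 12 D, 3 loci were higher and 7 lower in pp7l, where 42.5% of all loci were called, 17.2% higher and 25.4% lower. AT2G07719, described as a putative membrane lipoprotein and identical to the mitochondrial genome, stood at 18.9, 15.1 and 14.4 TPM in pp7l and at 69.1, 76.0 and 49.9 TPM in Col0 at 12 D. The groups lay far apart, and the difference was -1.93 ± 0.41 (adjusted p = 3.7e-04), and -1.68 after scaling. At 0 D the same locus stood at 20.7, 20.1 and 20.3 TPM in pp7l and at 19.9, 18.6 and 19.4 TPM in Col0. AT2G07679 and AT2G07738 had differences of -2.96 ± 0.75 and -1.60 ± 0.30. Those higher were AT2G07705 (2.43 ± 0.87), AT2G07825, an uncharacterized locus (1.57 ± 0.47), and AT2G07777 (0.71 ± 0.24). The calls of these 3 were lost without 1 or another of the libraries compared. The reference description of AT2G07777 points to atp9, but the ATMG locus it names is ATMG01090, not the atp9 gene ATMG01080.

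At 15 D, 60 loci were higher and 2 lower in pp7l than in Col0, where 81.9% of all loci were called, 77.5% higher and 4.46% lower. After scaling 20 were higher and 19 lower, where 30.9% of all loci were higher and 32.8% lower. The median difference was 1.42 for these loci, 1.01 for the ATMG loci and 1.27 for all loci. AT2G07698 stood at 1124, 1067 and 1181 TPM in pp7l and at 148, 139 and 44.2 TPM in Col0. The lowest pp7l library was far above the highest of Col0, and the difference was 3.52 ± 0.36 (adjusted p = 4.1e-09), and 1.32 after scaling. All 5 ribosomal protein loci were higher in pp7l, with a median difference of 2.82. Among them AT2G07696 was higher by 3.50 ± 0.44 and by 1.66 after scaling, and AT2G07734 by 3.09 ± 0.41 and by 1.17.

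The high loci at 15 D divided into those that were higher and those that were not. AT2G07726 was higher by 3.06 ± 0.44 in TPM and by 0.87 after scaling. AT2G07671 stood at 7722, 8135 and 6760 TPM in pp7l and at 10260, 6398 and 2308 TPM in Col0, and the Col0 libraries enclosed those of pp7l. Its difference was 0.50 ± 0.44 in TPM, which did not pass, and -1.71 after scaling. AT2G07687 and AT2G07727 were higher in TPM, by 1.29 ± 0.42 and 1.41 ± 0.33, and lower after scaling. AT2G07741 and AT2G07808, the 2 loci called lower in pp7l in TPM, were listed at 0 in all pp7l libraries of 15 D. AT2G07808 was listed at 0 in 26 of the 29 libraries and passed the filter only through the Col0 libraries of 15 D, where it stood at 2.87, 1.25 and 1.47 TPM, and AT2G07741 only through 2 of these and Col0 6 D replicate 1. The Col0 libraries of 15 D, on which every difference at that day rests, hold the rRNA and AT1G15405 shares given above.

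**Figure D5:**
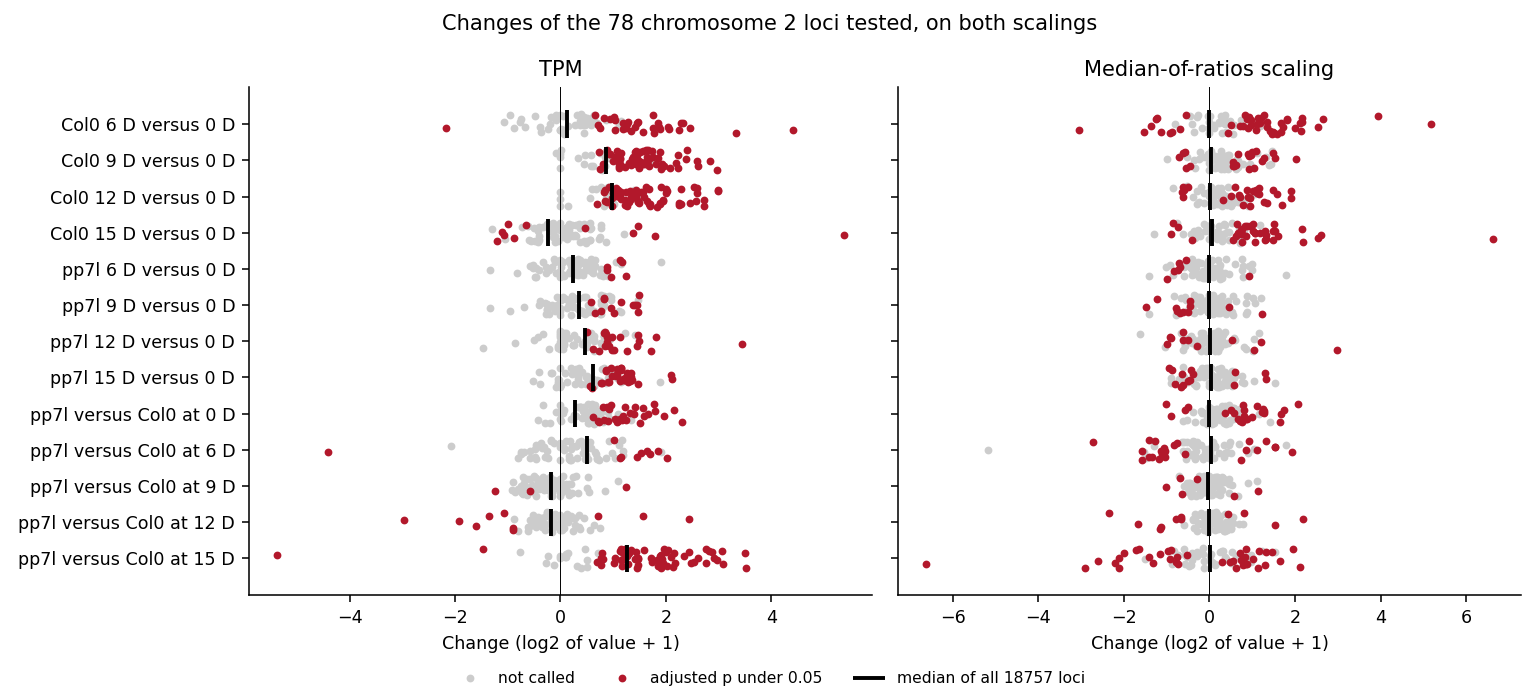
Change of the 78 loci tested (log2 of value + 1, points jittered within a row) in each of 13 comparisons, from TPM on the left and after median-of-ratios scaling on the right, with loci of adjusted p under 0.05 in red and a black bar at the median of all 18757 loci. On the left, 63 red points lie right of 0 in Col0 12 D versus 0 D, and on the right the points are spread on both sides of a bar near 0.

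Ratios between loci of the insertion are free of the total of a library, and they differed between days and genotypes. The level of AT2G07698 (atp1) per 100 TPM of AT2G07671 (atp9) was 11.6 ± 1.51 in undroughted pp7l, then 18.0 ± 0.530 after 6 days, 17.3 ± 1.17 after 9, 15.5 ± 1.40 after 12 and 15.0 ± 2.22 after 15 days (SD, n = 3 each). In undroughted Col0 the ratio was 4.43 ± 1.53, then 12.3 ± 1.15 after 9 days, 8.42 ± 0.817 after 12 and 1.84 ± 0.372 after 15 days (SD, n = 3 each), and 109 and 11.3 in replicates 1 and 3 at 6 D. The pp7l libraries of 0 D and of 15 D were each above all Col0 libraries of the same day. The level of AT2G07734 (rps4) per 100 TPM of AT2G07671 was 0.820 ± 0.214 in pp7l and 0.131 ± 0.0182 in Col0 at 0 D, and it was 0.560 ± 0.155 in pp7l and 0.0705 ± 0.00656 in Col0 at 15 D. Both ratios divide 1 locus by another, were looked at after the values were known and were not tested.

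The ratio of AT2G07707 (atp8) to AT2G07671 (atp9) varied less. It was 40.9 ± 2.88 per 100 TPM in pp7l and 44.5 ± 1.504 in Col0 at 0 D, and 46.2 ± 3.21 in pp7l and 61.3 ± 9.90 in Col0 at 15 D (SD, n = 3 each). Over all 29 libraries it ran from 29.9, in Col0 6 D replicate 1, to 72.7.

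A moderated F-test asked for each locus whether its changes from 0 D to 6, 9, 12 and 15 D differed between pp7l and Col0. It called 62 of the 78 loci, where 91.4% of all loci were called, and 45 after scaling, where 74.3% were. The 62 include AT2G07741, AT2G07808, AT2G07694 and AT2G07729, named above as passing the filter through a group in which they were high. Their calls are a description only. Among the 8 highest loci, AT2G07698, AT2G07726, AT2G07727 and AT2G07687 were called (adjusted p of 1.1e-06, 3.1e-04, 0.0038 and 0.018 by limma), and AT2G07671, AT2G07707, AT2G07731 and AT2G07771 were not (adjusted p of 0.13, 0.17, 0.33 and 0.34). After scaling, these last 4 were called and AT2G07687 was not.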

How the data were processed

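RNA of whole plants was sequenced on Illumina TruSeq libraries, per the labels' protocols. The authors deposited 1 table of TPM per locus and library, and each of the 29 libraries summed to 1000000. The submitters' processing notes name Trimmomatic, FastQC, Salmon and the TAIR10 build, without versions. The transcript set, the index and the treatment of reads that match several loci are not given in the sources used here, and they decide how reads were divided between near-identical copies. TPM keep no read depth, so no counting interval is given. No column of the table was left unused (0).

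Libraries were grouped by genotype and day as labelled. Group means of log2(TPM + 1) were fitted with limma 3.58.1 in R 4.3.3 (empirical Bayes with trend, 19 residual degrees of freedom) on 18757 loci with at least 1 TPM in at least 3 libraries. P-values were Benjamini-Hochberg adjusted within each comparison at 0.05. The script was checked on simulated data. Median-of-ratios scaling, other pseudocounts, filters, totals, array weights, fits of only the groups compared, a replicate block and the omission of each library were the alternatives. Positions, descriptions and sequences came from RefSeq TAIR10.1, in which 132 of the 135 identifiers were found, and chromosome 2 was aligned to the mitochondrial genome with blastn 2.17.0. Loci were named if among the 8 highest means, if among the 3 largest called changes in each direction of a comparison, or if the reference gives a symbol or a function that is not mitochondrial. Further loci in the text were named after their values were seen, as were the ratios between loci. The members and lists were chosen with earlier results of these data known.

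Same-numbered libraries were checked for shared deviations. In 37 pairs the correlation ran from -0.11 to 0.26 across genes, with 4 over 0.1, and only pp7l against Col0 at 15 D had all its pairs over 0.1, where the fit with a replicate block called 61 loci in place of 62.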

Additional observations from a re-analysis of the deposited data

Results flagged for a closer look

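The change over the days differed between pp7l and Col0 by the moderated F-test of limma for 4 of the 8 loci of highest mean, against a background in which 91.4% of all loci tested were called. The atp1 locus AT2G07698 had an adjusted p of 1.12e-06 (7.9e-04 after median-of-ratios scaling), with 1124 ± 56.9 TPM in pp7l and 110 ± 57.5 TPM in Col0 at 15 D (SD, n = 3 each). The rps14 pseudogene AT2G07726 had an adjusted p of 0.000305 (0.0051 after scaling). The cob locus AT2G07727 had an adjusted p of 0.00382 (0.0108 after scaling), and the cox3 locus AT2G07687 had 0.0175 (0.114 after scaling, which does not pass). The other 4 of the 8 did not pass in TPM but passed after scaling. For AT2G07671, AT2G07707, AT2G07731 and AT2G07771 the F-test then gave adjusted p of 0.0011, 6.6e-05, 9.5e-07 and 1.9e-04.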

How the results depend on the processing

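The number of the 78 loci called depended on the setting in most comparisons, and except where said the cause was not tested. Apart from median-of-ratios scaling, the share of all loci called under these settings is not at hand. A count that moved may therefore have moved as it did for all loci. Median-of-ratios scaling gave 22, 27 and 37 for Col0 at 9, 12 and 15 D, 11 and 14 for pp7l at 12 and 15 D, and 26, 6 and 39 for pp7l against Col0 at 6, 9 and 15 D. The total without organellar and rRNA loci and AT1G15405 gave 34 for Col0 15 D, 15 and 24 for pp7l at 6 and 9 D, and 22 and 5 for pp7l against Col0 at 6 and 9 D. Array weights gave 0 and 41 for Col0 at 6 and 15 D, 47, 46, 51 and 50 for pp7l at 6, 9, 12 and 15 D, and 49, 0, 28 and 24 for pp7l against Col0 at 0, 6, 9 and 12 D. Fits of only the groups compared gave 0 for Col0 6 D, 29, 29 and 44 for pp7l at 6, 9 and 12 D, and 51, 0 and 16 for pp7l against Col0 at 0, 6 and 9 D. Of these limma counts of 0, Col0 6 D had 7 (array weights) and 26 (only the groups compared) at an unadjusted p under 0.05, and pp7l against Col0 at 6 D had 2 and 4. A pseudocount of 0.1 gave 2 for pp7l 6 D and 0 for pp7l against Col0 at 9 D (8 unadjusted), and a pseudocount of 5 gave 6 and 5 for pp7l against Col0 at 6 and 9 D. No filter gave 3 for pp7l 6 D and 5 for pp7l against Col0 at 9 D, and the filter in at least 15 libraries gave 1 for the last. Without the Col0 15 D libraries and Col0 6 D replicate 1, a setting chosen after seeing the data, the counts were 54 for Col0 6 D, 23, 36 and 43 for pp7l at 6, 9 and 12 D, and 50, 4, 19 and 18 for pp7l against Col0 at 0, 6, 9 and 12 D.

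Leaving out each library in turn gave 22 to 40, 55 to 65, 56 to 68 and 7 to 20 loci for Col0 at 6, 9, 12 and 15 D, and 1 to 10, 5 to 26, 12 to 34 and 23 to 41 for pp7l. For pp7l against Col0 it gave 8 to 37 at 0 D, 1 to 37 at 6 D, 0 to 8 at 9 D, 6 to 13 at 12 D and 52 to 63 at 15 D, and 57 to 68 for the difference in change. The count of 0 at 9 D came without pp7l 9 D replicate 1, with 10 loci at an unadjusted p under 0.05. The ratio of summed levels ran from 0.894 to 0.911 in pp7l and from 0.999 to 1.04 in Col0, and without the 3 highest ATMG loci it was 1.55 in pp7l and 1.86 in Col0, by construction of a smaller denominator.

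The fit with the replicate block called 32, 61, 61 and 10 loci for Col0 at 6, 9, 12 and 15 D, 5, 12, 20 and 32 for pp7l, 29, 10, 2, 10 and 61 for pp7l against Col0 at 0, 6, 9, 12 and 15 D, and 61 for the difference in change, none of them over 1.5 times away. Of 2957 alternative values of single loci, 2736 kept direction and call, 214 lost the call and 7 reversed, all by median-of-ratios scaling: AT2G07687 and AT2G07731 to -0.35 and -0.45 for Col0 9 D and to -0.30 and -0.63 for Col0 12 D, AT2G07727 to -0.087 for pp7l 15 D, and AT2G07687 and AT2G07727 to -0.92 and -0.79 for pp7l against Col0 at 15 D. The difference in change has no value with only the groups compared. Depth is unknown, so its limit on low loci cannot be given.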
